A study of Homo sapiens with 6 samples.

Results

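The cyclin E genes CCNE1 and CCNE2, the kinase gene CDK2 and the phosphatase genes CDC25A, CDC25B and CDC25C were followed in RNA polymerase II ChIP-seq peak lists of the established human line SK-Hep1, derived from a liver adenocarcinoma. They are 6 of 20136 annotated protein-coding genes, chosen by function with peak heights and ratios from these same lists already known. Their peaks were those that overlapped the gene or 5 kb on either side on the hg19 build, which gave 18 of 28968 peaks in siME2+αKG, 22 of 29201 in siME2 and 23 of 31710 in siCtrl. The siME2+αKG cells received small interfering RNA against ME2, which encodes the mitochondrial malic enzyme 2, and α-ketoglutarate was added. The siME2 cells received the same small interfering RNA alone, and the siCtrl cells received a control small interfering RNA. All 3 groups were the same line in serum-containing medium, and the dose and duration of either treatment are not given in the sources used here. The series asks how loss of ME2 and supply of α-ketoglutarate bear on cell cycle gene transcription. There was 1 ChIP library and 1 input library per condition, so no value below has a replicate, and no test between conditions was made.

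Entry into DNA synthesis depends on cyclin E bound to the kinase CDK2, which phosphorylates the retinoblastoma protein and factors of replication and histone gene transcription. WEE1 and PKMYT1 hold cyclin-dependent kinases inactive through inhibitory phosphates, and the CDC25 phosphatases remove them. CDC25A acts at both S phase and mitotic entry, whereas CDC25B and CDC25C are known mainly for activating the mitotic kinase CDK1. Cyclin E genes and CDC25A are textbook targets of E2F factors, and CDC25C is a textbook late-cycle gene, repressed earlier in the cycle through a CHR element.

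The ChIP libraries held 12955596 filtered tags in siME2+αKG, 10445326 in siME2 and 13006504 in siCtrl. Summit height is the number of extended ChIP fragments over a peak's summit per 1000000 filtered tags. The lowest listed summit anywhere held 8 fragments in siME2+αKG, 7 in siME2 and 8 in siCtrl, so a peak that is not listed is not a count of 0. A ratio of heights is written with a slash, as siME2/siCtrl. Intervals are 95% exact intervals that cover counting error only: Poisson for a height, conditional binomial (Clopper-Pearson) for a ratio of heights. In these bulk samples, fewer cells carrying polymerase at a gene and less polymerase per cell cannot be told apart. Hepatocyte markers had a promoter peak for 0 of 12 genes in each list, and endothelial markers for 1 of 7. Mesenchymal markers had one for 7 of 8 genes in siME2+αKG, 6 in siME2 and 7 in siCtrl, and leukocyte markers for 1 of 8 in each. At ME2 itself the promoter summit height was 4.86 in siME2+αKG, 5.36 in siME2 and 5.46 in siCtrl. Silencing by such RNA takes place after transcription, so promoter polymerase does not check the knockdown.

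Promoter sequence is shown for CDC25A, whose highest summit was lower in siME2 than in siCtrl, and for CDC25C. CDC25C was lower at its main starts and not by that much at its highest summit, a split made after the data had been seen. It is also shown for CDK2 and CDC25B, whose heights were not lower in siME2 than in siCtrl. The sequences of CCNE1 and CCNE2 are not shown. CCNE2, whose highest summit was also lower in siME2 than in siCtrl, held neither the E2F nor the CHR letters given below. Each line gives 300 bases of GRCh37 (the hg19 build) in the gene's own direction, from 250 bases before the canonical start site to 50 from it. Capitals mark letters of an E2F site, a CHR element or a CCAAT box on either strand. The windows are chr3:48229858-48230157 (minus strand) for CDC25A, chr5:137667444-137667743 (minus strand) for CDC25C, chr12:56360364-56360663 (plus strand) for CDK2 and chr20:3776707-3777006 (plus strand) for CDC25B.
CDC25A: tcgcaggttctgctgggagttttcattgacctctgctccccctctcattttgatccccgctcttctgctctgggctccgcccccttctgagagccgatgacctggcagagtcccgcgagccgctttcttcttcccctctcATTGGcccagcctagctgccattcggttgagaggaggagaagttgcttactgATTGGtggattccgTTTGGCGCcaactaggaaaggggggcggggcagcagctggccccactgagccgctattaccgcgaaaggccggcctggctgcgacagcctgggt
CDC25C: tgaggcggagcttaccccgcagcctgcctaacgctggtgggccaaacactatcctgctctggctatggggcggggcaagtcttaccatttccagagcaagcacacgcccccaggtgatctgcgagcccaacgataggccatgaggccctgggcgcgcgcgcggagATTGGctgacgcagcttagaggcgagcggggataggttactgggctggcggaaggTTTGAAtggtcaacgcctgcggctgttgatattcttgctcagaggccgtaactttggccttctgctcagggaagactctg
CDK2: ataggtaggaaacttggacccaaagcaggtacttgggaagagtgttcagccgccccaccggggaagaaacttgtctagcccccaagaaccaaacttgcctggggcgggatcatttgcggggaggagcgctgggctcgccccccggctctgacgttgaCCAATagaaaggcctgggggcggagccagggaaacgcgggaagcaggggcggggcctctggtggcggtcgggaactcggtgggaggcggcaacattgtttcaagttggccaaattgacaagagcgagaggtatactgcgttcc
CDC25B: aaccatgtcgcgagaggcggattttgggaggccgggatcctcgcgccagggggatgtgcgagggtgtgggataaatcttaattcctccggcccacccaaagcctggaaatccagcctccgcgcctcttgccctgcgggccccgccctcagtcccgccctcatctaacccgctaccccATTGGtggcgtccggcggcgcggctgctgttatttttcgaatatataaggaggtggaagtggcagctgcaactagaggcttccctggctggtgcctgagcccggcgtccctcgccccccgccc

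The E2F letters searched were TTTCCCGC, TTTGGCGC, TTTCGCGC and TTTGCCGC, and the CHR letters were TTTGAA. Letters of the E2F site were in the window of 1 of the 6 genes, CDC25A, where they start 44 bases before the start site, and in 4.37% of 19856 promoter windows of the same length. The CHR letters were in 1 of the 6 windows, that of CDC25C, 30 bases before its start site, against 11.4% of all windows. CCAAT was in 5 of the 6 windows, all but that of CCNE1, against 36.0% of all windows, and CDC25A held it at 2 places. The GC box GGGCGG was in all 6 windows, against 61.5% of all, with 7 matches at CCNE1, whose window is 81.0% G and C (median of all windows 63.7%). The TATA letters TATAAA were in none of the 6 and in 9.63% of all windows. Other forms of the E2F, CHR and TATA letters were not searched, and the CDC25B window printed above holds TATATAA. A window without the searched letters can therefore still hold such a site. None of the searched letters overlapped another within the windows shown. A match describes the letters only.

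In all 3 libraries, each of the 6 genes had a summit within 1 kb of an annotated start site, as did 58.1% of all protein-coding genes. The highest such summit was low at CCNE1 and far higher at an alternative start of CDC25C than at any other of the genes. Among the other 4 genes the heights ran between 1.91 and 4.32. Heights were at least 1.5-fold lower in siME2 than in siCtrl at 2 of the 6, CCNE2 and CDC25A (3.16% of all genes), and at least 1.5-fold higher at 0 (1.49% of all genes). The main start sites of CDC25C, taken apart from its alternative start, were also lower by that much.

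**Figure D1:**
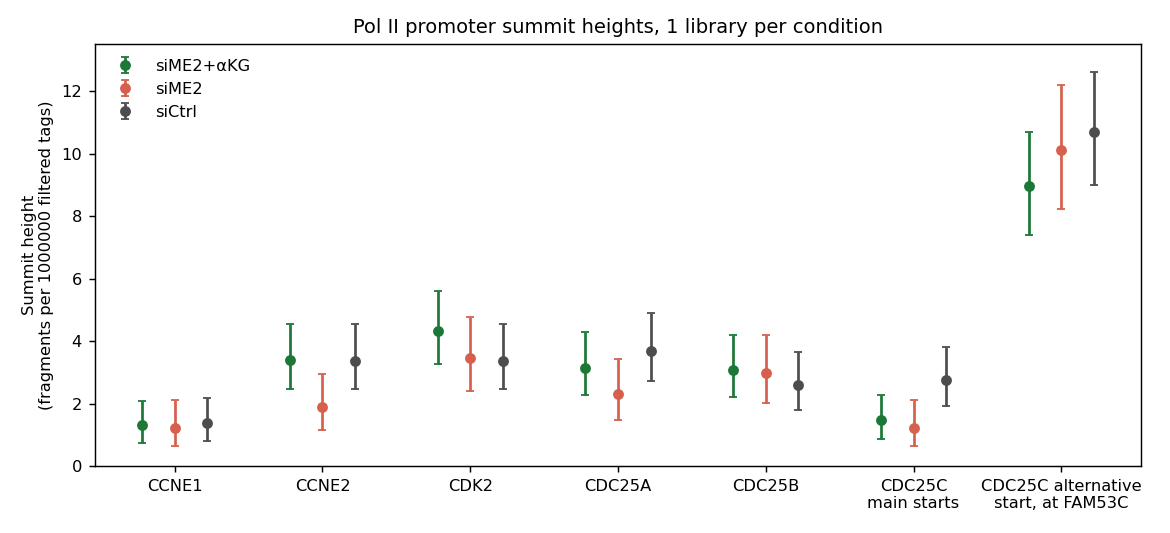
Summit height (fragments per 1000000 filtered tags) at the highest promoter summit of each gene, with CDC25C split by start site. Points are single libraries and bars are 95% Poisson intervals of the fragment count. The siME2 points of CCNE2 (1.91) and CDC25A (2.3) lie under both other libraries, and at the CDC25C main starts the siME2+αKG (1.47) and siME2 (1.24) points lie under siCtrl (2.77).

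CCNE1 encodes cyclin E1 and lies on chromosome 19 from 30302898 to 30315219 (plus strand). Its highest promoter summit held 17 fragments in siME2+αKG, 13 in siME2 and 18 in siCtrl, with a height of 1.31 (0.764 to 2.10) in siME2+αKG, 1.24 (0.663 to 2.13) in siME2 and 1.38 (0.820 to 2.19) in siCtrl. These 3 intervals overlap almost whole. In the ranking of all promoter summits of its own library, CCNE1 stood at percentile 3.33 in siME2+αKG, 2.38 in siME2 and 5.21 in siCtrl. The summit was not at the start site but upstream of it, at −505 bp in siME2+αKG, −471 bp in siME2 and −482 bp in siCtrl. A separate peak lay within 170 bases of a start, with a summit of 12 fragments in each of the 3 libraries. The nearest start of another coding gene, C19orf12, was 95697 bases from the siME2+αKG summit. The log2 ratio of heights at the upstream summit was −0.15 (−1.30 to 0.96) for siME2/siCtrl and 0.08 (−1.05 to 1.24) for siME2+αKG/siME2, and the sign of the second turned with the window and the scaling. At this depth the data allow anything from 0.405 to 1.94 of the siCtrl height in siME2. No further peak was listed in the gene body or past the 3′ end.

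CCNE2 encodes cyclin E2 and lies on chromosome 8 from 95891998 to 95908906 (minus strand). Its highest promoter summit lay in an intron by the annotation, 67 bases after a start site in siME2+αKG, 55 in siME2 and 56 in siCtrl. It held 44 fragments in siME2+αKG, 20 in siME2 and 44 in siCtrl. Heights were 3.40 (2.47 to 4.56) in siME2+αKG, 1.91 (1.17 to 2.96) in siME2 and 3.38 (2.46 to 4.54) in siCtrl. The siME2 library was the low one, although its interval still overlapped the other two. With the local input background of 2.70 fragments in siME2+αKG, 2.09 in siME2 and 1.45 in siCtrl taken off, 41.3 fragments were left in siME2+αKG, 17.9 in siME2 and 42.5 in siCtrl. The peak was 836 bp long in siME2+αKG, 747 bp in siME2 and 1185 bp in siCtrl.

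The ratio at this summit was 0.566 (0.316 to 0.981) for siME2/siCtrl and 1.77 (1.02 to 3.18) for siME2+αKG/siME2. Both comparisons use the siME2 library. Set against siCtrl, siME2+αKG stood at 1.00 (0.646 to 1.56). CCNE2 was the 1 gene of the 6 whose interval left out a ratio of 1 in either of the first 2 comparisons. Of all genes, 1.56% had an interval below 1 for siME2/siCtrl and 0.499% had one above 1 for siME2+αKG/siME2. Both intervals reached close to 1, and other scalings ended these calls. For siME2/siCtrl the log2 interval was −1.62 to 0.01 with scaling by total tags, −1.62 to 0.01 with the median of all promoters set to 0 and −1.59 to 0.04 with division by fragment length. For siME2+αKG/siME2 it was −0.10 to 1.53 with division by fragment length, and it stayed above 0 under the other 2 scalings. The ratios themselves stayed past 1.5-fold under all 3.

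Further peaks at CCNE2 were listed in the other libraries and not in siME2. At the upstream alternative start, position 95908906, a peak held 17 fragments in siME2+αKG and 24 in siCtrl, and none was listed in siME2, where the siCtrl count would come to 19.3 fragments at the siME2 depth. Between the 2 starts, a peak of 214 bp with 22 fragments was listed in siCtrl only, over a local background of 4.30 fragments, the highest at this gene. Its siCtrl count would come to 21.9 fragments at the siME2+αKG depth. NDUFAF6, which encodes an assembly factor of respiratory complex I, starts in the opposite direction within 402 bases of the CCNE2 summit and within 92 bases of this siCtrl peak. The lists carry no strand, so polymerase of CCNE2 and of NDUFAF6 cannot be told apart there. Peaks covered 6.30% of the CCNE2 gene in siME2+αKG, 4.42% in siME2 and 9.49% in siCtrl, and none lay in the rest of the gene body.

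CDK2, the kinase that cyclin E activates, lies on chromosome 12 from 56360565 to 56366573 (plus strand). Its promoter summit lay 79 bases after a start in siME2+αKG, 128 in siME2 and 77 in siCtrl. It held 56 fragments in siME2+αKG, 36 in siME2 and 44 in siCtrl. Heights were 4.32 (3.27 to 5.61) in siME2+αKG, 3.45 (2.41 to 4.77) in siME2 and 3.38 (2.46 to 4.54) in siCtrl, so siME2 and siCtrl were level and siME2+αKG was highest with overlapping intervals. The log2 ratio was 0.03 (−0.65 to 0.70) for siME2/siCtrl, 0.33 (−0.30 to 0.97) for siME2+αKG/siME2 and 0.35 (−0.24 to 0.96) for siME2+αKG/siCtrl. Over all promoters that last comparison had a median of −0.13, and relative to it CDK2 stood at 0.48. The local background was 3.33 fragments in siME2+αKG, 3.19 in siME2 and 5.16 in siCtrl.

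The other peaks in the CDK2 window belong by position to neighbours. PMEL, which encodes a melanosome protein and runs on the other strand, has starts within 226 bases of the CDK2 summit in each library, so the CDK2 summit can hold PMEL polymerase. Past the 3′ end of CDK2, a summit at a distal start of PMEL held 22 fragments in siME2+αKG, 16 in siME2 and 23 in siCtrl. A summit within 153 bases of the start of RAB5B, an early endosome GTPase gene, held 68 in siME2+αKG, 72 in siME2 and 76 in siCtrl. The log2 ratio at RAB5B was 0.24 (−0.25 to 0.72) for siME2/siCtrl and −0.39 (−0.89 to 0.11) for siME2+αKG/siME2.

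**Figure D2:**
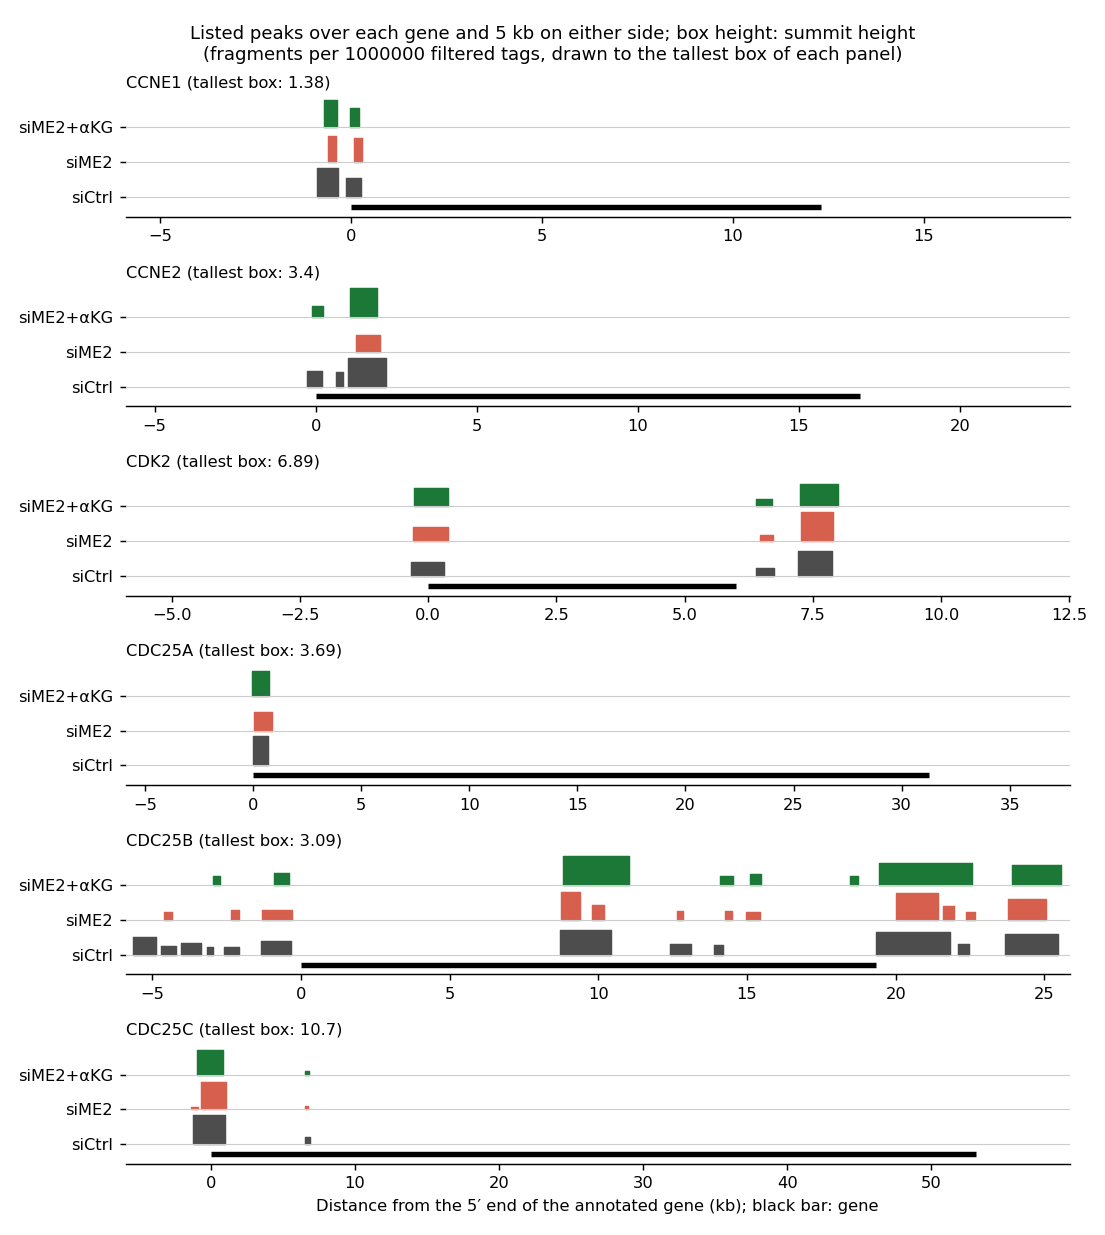
Listed peaks over each gene and 5 kb on either side, drawn by distance from the gene's 5′ end (kb) with a track per library. Box width is the peak and box height is its summit height, drawn to the tallest box of each panel. CDC25B carries peaks upstream, inside and past its 3′ end, and CDC25A carries a single peak at its start in each library.

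CDC25A lies on chromosome 3 from 48198636 to 48229907 (minus strand), and had a single peak in each library, with its summit in an exon. The nearest start of another coding gene, CAMP, was 35068 bases from the siME2+αKG summit. The summit held 41 fragments in siME2+αKG, 24 in siME2 and 48 in siCtrl. It lay 77 bases after a start in siME2+αKG, 116 in siME2 and 90 in siCtrl. Heights were 3.16 (2.27 to 4.29) in siME2+αKG, 2.3 (1.47 to 3.42) in siME2 and 3.69 (2.72 to 4.89) in siCtrl. The siME2 height was the lowest, and the intervals overlapped. The E2F letters printed above lie upstream of this summit.

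For siME2/siCtrl the CDC25A log2 ratio was −0.68 (−1.45 to 0.05), past 1.5-fold, with an interval that reached 0. The siME2+αKG/siME2 value was 0.46 (−0.30 to 1.25), short of 1.5-fold, and for siME2+αKG/siCtrl it was −0.22 (−0.86 to 0.41). The peak was 787 bp long in siME2+αKG, 865 bp in siME2 and 691 bp in siCtrl, so it was not shorter where it was lower. Local background came to 1.40 fragments in siME2+αKG, 1.17 in siME2 and 2.58 in siCtrl.

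CDC25B lies on chromosome 20 from 3767419 to 3786768 (plus strand) and held more listed peaks than any other of the 6 genes, 8 in siME2+αKG, 12 in siME2 and 12 in siCtrl. Its highest promoter summit was not at the annotated 5′ end but about the second group of start sites, from 3776386 to 3777078, which holds the canonical start, 3776957. The summit lay at 3776654 in siME2+αKG, 3776635 in siME2 and 3776585 in siCtrl, upstream of the sequence printed above. It held 40 fragments in siME2+αKG, 31 in siME2 and 34 in siCtrl. Heights were 3.09 (2.21 to 4.20) in siME2+αKG, 2.97 (2.02 to 4.21) in siME2 and 2.61 (1.81 to 3.65) in siCtrl, and the libraries did not separate. Log2 ratios were 0.18 (−0.57 to 0.93) for siME2/siCtrl and 0.06 (−0.66 to 0.78) for siME2+αKG/siME2, the second of which turned to −0.08 when heights were divided by fragment length. One peak of 2249 bp in siME2+αKG and one of 1718 bp in siCtrl spanned what siME2 listed as a peak of 643 bp and a second of 419 bp.

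Past its 3′ end, CDC25B carried peaks that no other of the 6 genes had, apart from those at neighbours' starts. The highest summit there held 31 fragments in siME2+αKG, 30 in siME2 and 32 in siCtrl. It lay 1931 bases past the end in siME2+αKG, 1360 in siME2 and 1934 in siCtrl. These came to 77.5% of the promoter summit in siME2+αKG, 96.8% in siME2 and 94.1% in siCtrl, and the log2 ratio of siME2/siCtrl was 0.22 (−0.55 to 0.99). Genes with a promoter summit had such a peak, within 5 kb past the end and over 1 kb from any coding start, in 22.9% of cases in siME2+αKG, 21.8% in siME2 and 24.3% in siCtrl. A further peak crossed the 5 kb limit past the end, with its summit outside it, and held 27 fragments in siME2+αKG, 23 in siME2 and 29 in siCtrl. The next coding gene on that side, AP5S1, starts 8881 bases beyond that summit in siCtrl.

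The weak peaks upstream of CDC25B lay nearest to starts of CENPB, which encodes a centromere-binding protein, and of SPEF1. The CENPB peak held 17 fragments in siME2+αKG, 11 in siME2 and 19 in siCtrl. A siCtrl peak near SPEF1 with 24 fragments crossed the 5 kb limit with 118 of its 760 bp, its summit lying outside, and its siME2 counterpart, with 11 fragments, ended 381 bases outside. No siME2+αKG peak was listed there, where the siCtrl count would come to 23.9 fragments. Farther outside the limit, but within 5 kb of it, were peaks of 19 fragments in siME2 and 16 in siCtrl near CDC25B and 1 of 11 fragments in siME2 near CDK2.

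**Figure D3:**
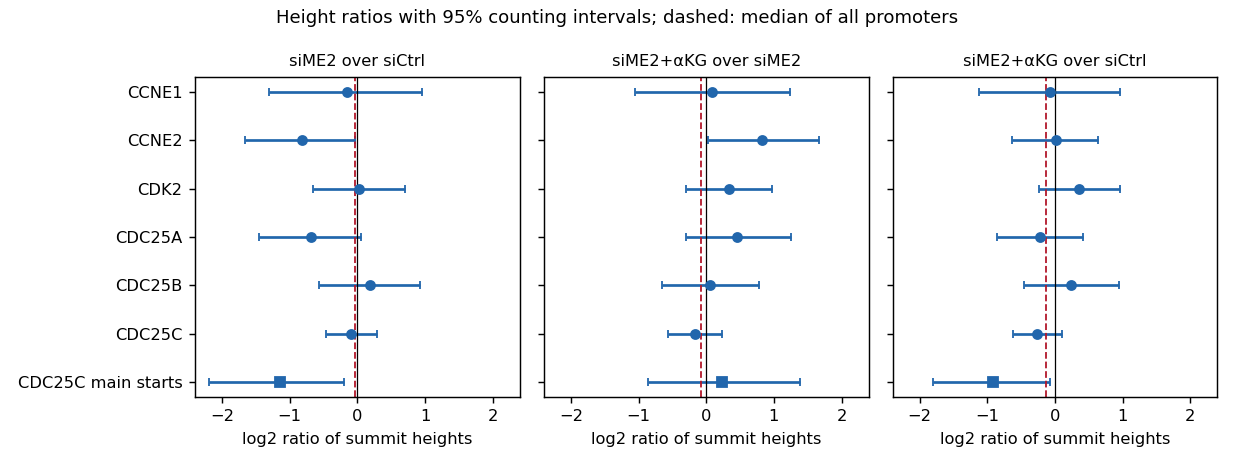
Log2 ratio of summit heights for each gene in the 3 comparisons, with 95% conditional binomial intervals (x axis, log2). Circles use the highest promoter summit and squares the main start sites of CDC25C. The dashed line is the median of all promoters (−0.04, −0.08 and −0.13 from left to right), and the CCNE2 interval clears 0 by 0.03 in the left and middle panels, which division by fragment length ends in both.

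CDC25C lies on chromosome 5 from 137620958 to 137674044 (minus strand) and has 2 separate groups of start sites with a peak. By the highest summit at any start, it led the 6 genes with 116 fragments in siME2+αKG, 105 in siME2 and 139 in siCtrl. That summit, at percentile 98.5 of promoters in siME2+αKG, 99.4 in siME2 and 99.4 in siCtrl, lies at the alternative start near 137674044. It is also the highest summit of FAM53C, which starts within 102 bases of it on the other strand in each library. A weak siME2 peak of 10 fragments lay farther upstream. The log2 ratio at the highest summit was −0.09 (−0.47 to 0.29) for siME2/siCtrl and −0.17 (−0.56 to 0.23) for siME2+αKG/siME2.

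The main starts of CDC25C, from 137666869 to 137667561, which hold the canonical start and the CHR letters printed above, had their own peak over an exon. It held 19 fragments in siME2+αKG, 13 in siME2 and 36 in siCtrl, heights of 1.47 (0.883 to 2.29) in siME2+αKG, 1.24 (0.663 to 2.13) in siME2 and 2.77 (1.94 to 3.83) in siCtrl. Here both knockdown libraries were low, and the siME2+αKG library was nearer to siME2 than to siCtrl. The log2 ratio was −1.15 (−2.19 to −0.20) for siME2/siCtrl, 0.24 (−0.86 to 1.38) for siME2+αKG/siME2 and −0.92 (−1.80 to −0.08) for siME2+αKG/siCtrl. With the median of all promoters set to 0, the interval of the last took in 0 (−1.67 to 0.05). This split of start sites was made after the data had been seen. The peak was 240 bp long in siME2+αKG, 202 bp in siME2 and 379 bp in siCtrl, and local background was 2.22 fragments in siME2+αKG, 0.995 in siME2 and 3.44 in siCtrl. FAM53C also has an annotated start 308 bases from the siME2+αKG summit, on the other strand, so its polymerase cannot be told apart here either.

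Read beside all promoters, the 6 genes had a median log2 ratio of −0.12 for siME2/siCtrl, against −0.04 over 11991 genes with a summit in both lists. A height at least 1.5-fold lower in siME2 was found at 2 of the 6, against 3.16% of all, and one at least 1.5-fold higher at 0 of the 6, against 1.49% of all. Over all genes that was 379 lower and 179 higher, which became 250 lower and 272 higher when heights were also divided by the estimated fragment length. The interval lay below 0 at 1 of the 6, CCNE2, against 1.56% of all, and at 0 of the 6 under each of the 3 other scalings. It lay above 0 at 0 of the 6, against 0.625%. The genes were chosen with results of these libraries known, so the counts describe them and support nothing further. CCNE2 stood at percentile 0.776 and CDC25A at percentile 1.52 of all ratios, and the other 4 genes between 32.4 and 81.6.

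For siME2+αKG/siME2 the median was 0.20, against −0.08 over 11820 genes. CCNE2 alone of the 6 was at least 1.5-fold higher, against 1.40% of all genes, and 0 of the 6 were at least 1.5-fold lower, against 4.43% of all. Over all genes that was 524 lower and 165 higher, and 1126 lower and 79 higher with division by fragment length. The interval lay above 0 at 1 of the 6, CCNE2, against 0.499% of all, and at 0 of the 6 with division by fragment length. It lay below 0 at 0 of the 6, against 2.71%. Between siME2+αKG and siCtrl the median was −0.04, against −0.13 over 11896 genes, and 0 of the 6 passed 1.5-fold in either direction, against 4.42% of genes lower and 0.731% higher. Intervals left out 0 at 0 of the 6, against 3.09% of genes below and 0.193% above. Relative to that median of all genes, the 6 ranged from −0.13 at CDC25C to 0.48 at CDK2. These comparisons share libraries in pairs.

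**Figure D4:**
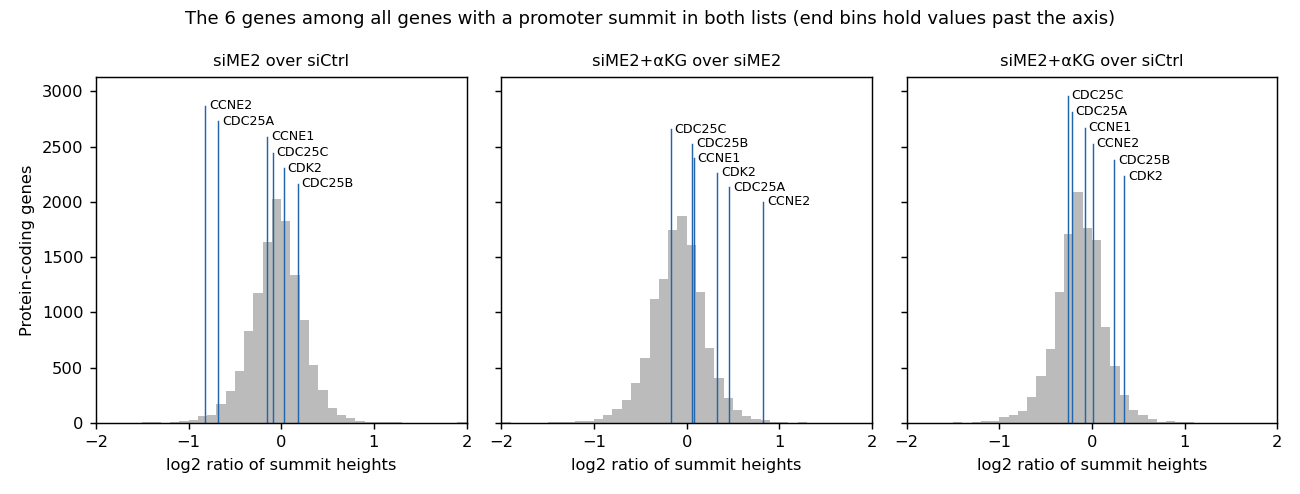
Number of protein-coding genes (y axis) by log2 ratio of summit heights (x axis, bins of width 0.1) for the 3 comparisons, with a blue line at each of the 6 genes. For siME2/siCtrl, CCNE2 (−0.82) and CDC25A (−0.68) lie in the lower tail, and for siME2+αKG/siME2, CCNE2 (0.83) lies in the upper tail.

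With start-site groups taken apart, 9 of the 19 groups of the 6 genes had a summit in both siME2 and siCtrl. A height at least 1.5-fold lower in siME2 was found at 3 of the 9, the main groups of CCNE2, CDC25A and CDC25C, against 3.26% of 13688 groups over all genes, and 0 were 1.5-fold higher, against 1.93%. Intervals lay below 0 at 2 of the 9, CCNE2 and CDC25C, against 1.49% of groups, and above 0 at none of the 9, against 0.606%. Between siME2+αKG and siME2, 1 of 9 was at least 1.5-fold higher, that of CCNE2, against 1.77% of 13425 groups, and 0 were lower, against 4.68%. The CCNE2 interval lay above 0, against 0.484% of groups, and 0 lay below, against 2.56%. Between siME2+αKG and siCtrl, 1 of 10 was at least 1.5-fold lower, the main group of CDC25C, against 4.50% of 13588 groups, and 0 were higher, against 1.11%. The CDC25C interval lay below 0, against 2.91% of groups, and 0 lay above, against 0.206%.

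Listed peaks over the 6 windows, joined where they overlapped between lists, made 25 regions. Of these 14 were listed in all 3 libraries (56.0%, against 47.4% of 37577 regions genome-wide). Those in siME2+αKG and siCtrl but not siME2 numbered 1 (4.0%, against 6.10%), the alternative start of CCNE2. Regions listed in siCtrl only numbered 3 (12.0%, against 18.1%) and in siME2 only 0 (0%, against 9.16%). Regions in siME2 and siCtrl but not siME2+αKG numbered 4, in or upstream of CDC25B (16.0%, against 5.34%). Of these, 1 counts as listed in siME2 only through a peak that ended 381 bases outside the CDC25B window. Those in siME2+αKG and siME2 only numbered 1 (4.0%, against 2.98%). The remaining 2, both in the CDC25B window, were listed in siME2+αKG only (8.0%, against 10.9%). Of these, 1 was nearest to a start of SPEF1 and began at 3764470, just past a region listed in siCtrl only that ended at 3764466.

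The other genes of the pathway were read by the same heights, from 6 lists with 47 genes chosen with earlier results known. For siME2/siCtrl, 3 of 42 genes with a summit in both were at least 1.5-fold lower (7.14%, against 3.16% of all genes) and 0 higher (against 1.49%), with a median of −0.12. Between siME2+αKG and siME2, 1 of 42 was lower (2.38%, against 4.43% of all genes) and 3 higher (7.14%, against 1.40%), with a median of −0.02. With division by fragment length the second comparison gave 4 lower and 0 higher of 42. Over all 11820 genes that division gave 1126 lower and 79 higher. Without that division, the 3 genes lower in siME2 and higher in siME2+αKG were the same, CDK1, CCNB1 and CCNB2. They encode the mitotic kinase that CDC25 phosphatases activate and its cyclins. CDK1 held 45 fragments in siME2+αKG, 24 in siME2 and 60 in siCtrl. CCNB1 held 45 in siME2+αKG, 22 in siME2 and 42 in siCtrl, and CCNB2 held 47 in siME2+αKG, 25 in siME2 and 55 in siCtrl. The siME2 library was lowest at each of the 3, with log2 ratios of siME2/siCtrl of −1.01 (−1.75 to −0.30) at CDK1, −0.62 (−1.43 to 0.16) at CCNB1 and −0.82 (−1.57 to −0.11) at CCNB2. The siME2+αKG/siME2 intervals all took in 0, with 0.60 (−0.15 to 1.38) at CDK1, 0.72 (−0.04 to 1.53) at CCNB1 and 0.60 (−0.13 to 1.36) at CCNB2. Division by fragment length brought these under 1.5-fold, to 0.46 at CDK1, 0.58 at CCNB1 and 0.46 at CCNB2. CCNB1 was also short of 1.5-fold for siME2/siCtrl under all 3 other scalings. These comparisons use the siME2 library on both sides, so the counts are not independent of each other.

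The kinases that restrain CDK2 and CDC25, with the 14-3-3 genes, had a median of −0.14 for siME2/siCtrl, with 0 of 13 past 1.5-fold in either direction. Of all genes, 3.16% were at least 1.5-fold lower and 1.49% higher for siME2/siCtrl. For siME2+αKG/siME2 these shares were 4.43% and 1.40%. At such shares, a count of 0 in lists this short does not set them apart from all genes. For siME2/siCtrl, WEE1 gave 0.20 (−0.32 to 0.73), PKMYT1 −0.36 (−0.95 to 0.22) and CHEK1, which marks CDC25A for destruction, −0.18 (−0.71 to 0.35). In the same list MAPKAPK2, a kinase downstream of p38, was the 1 gene at least 1.5-fold lower in siME2+αKG than in siME2 (4.43% of all genes), at −0.77 (−1.44 to −0.11). CDK2 partners and activating kinase subunits had a median of −0.05 for siME2/siCtrl and −0.31 for siME2+αKG/siME2, with 0 of 6 past 1.5-fold in both comparisons. CDK2 inhibitor genes had −0.23 for siME2/siCtrl, with CDKN1A at −0.23 (−0.63 to 0.16) and CDKN1B at 0.05 (−0.50 to 0.59). Ubiquitin ligase and deubiquitinase genes had −0.08 with 0 of 10 past 1.5-fold, and targets of cyclin E and CDK2 had −0.10 with 0 of 7. Among those targets the licensing factor gene CDC6 held 54 fragments in siME2+αKG, 30 in siME2 and 56 in siCtrl, a log2 ratio of −0.58 (−1.27 to 0.08) for siME2/siCtrl, just short of 1.5-fold. E2F1 had a siCtrl summit of 14 fragments and none listed in siME2+αKG or siME2.

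The list of D-type cyclin and CDK4/6 genes, which act earlier in G1, had a median of −0.11 for siME2/siCtrl, with 2 of its 5 genes at least 1.5-fold lower (against 3.16% of all genes), CCND2 at −0.64 (−1.58 to 0.25) and CDK4 at −0.60 (−1.15 to −0.07). With division by fragment length CCND2 stood at −0.57 and CDK4 at −0.53, so 0 of the 5 passed (of 11991 genes, 250 lower and 272 higher). CDK6 went the other way for siME2/siCtrl, at 0.51 (0.03 to 0.99), short of 1.5-fold but with an interval above 0 (0.625% of all genes). The siME2+αKG/siME2 median of this list was 0.07. There CDK6 was at least 1.5-fold lower (−0.73, −1.23 to −0.22), against 4.43% of all genes, a direction in which 0 of the 6 genes passed. Both CDK6 values use the siME2 library. No test of the difference between the lists was made.

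**Figure D5:**
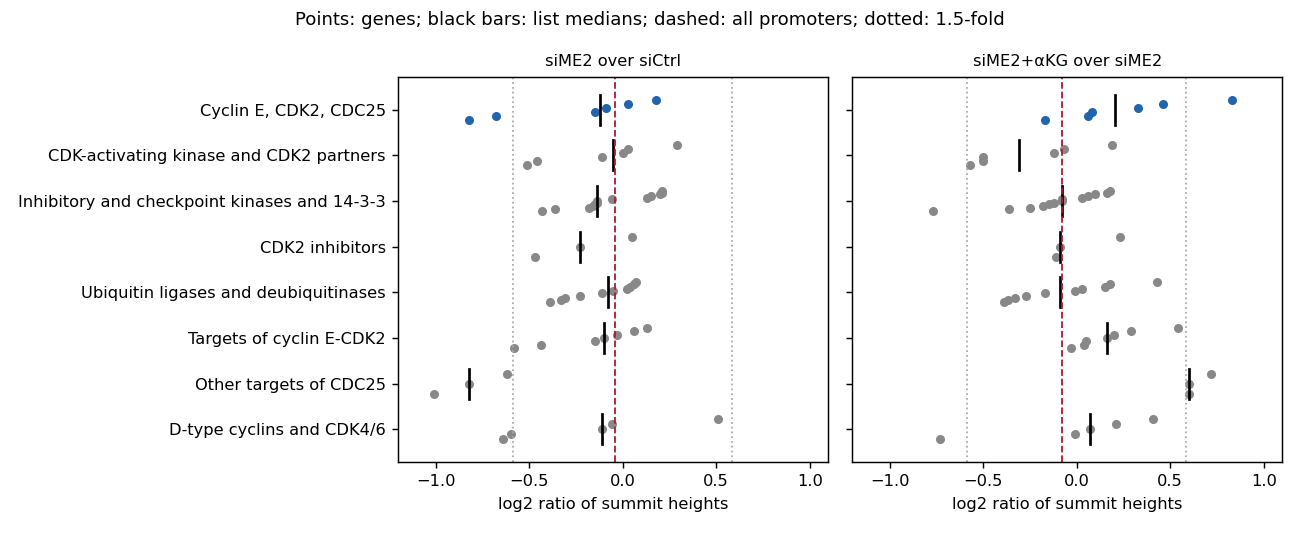
Log2 ratio of promoter summit heights (x axis) for each gene of the pathway lists (rows), for siME2/siCtrl (left) and siME2+αKG/siME2 (right). Points are genes, black bars are list medians, the dashed line is the median of all promoters and dotted lines mark 1.5-fold. The list of CDK1, CCNB1 and CCNB2 lies past 1.5-fold in both panels as drawn. On the left CCNB1 falls short of it under each of the other scalings, and on the right the list does with division by fragment length.

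The genes most like each member were taken by the distance between log2 heights over the 3 libraries, among 11709 genes with a summit in all of them. Nearest to CCNE2 were HELLS (heights 3.70 in siME2+αKG, 1.91 in siME2 and 3.46 in siCtrl) and the annotated gene ENSG00000267168, both at a distance of 0.13. CDC25A was nearest to SDHAF1 (0.03) and MFSD13A (0.04), and CCNE1 to CCDC42 (0.00) and NKX3-2 (0.08). For CDK2 they were RASAL2 (0.08) and SDSL (0.10), for CDC25B METTL6 and EAF1 (both 0.04, from a summit these 2 genes share), and for CDC25C by its highest summit RIPK1 (0.03) and ISCU (0.07). With 3 points per gene, the distance says mostly that levels are alike.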

How the data were processed

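The series holds 6 samples, 3 ChIP and 3 input. Peak lists of the 3 ChIP libraries were used. The sample titles give replicate number 2 for siCtrl and siME2 and none for siME2+αKG. Per the submitters' processing notes, reads were aligned with Bowtie2 2.3.5.1 to hg19 and peaks were called with MACS2 2.2.6, while the file headers name 2.2.7.1. Per the file headers, each list came from 1 ChIP library against its own input, with a p-value cutoff of 1e-05. At most 1 tag per position was used and the larger data set was scaled to the smaller. The deposited pileup is a signal, the extended fragments over the summit. The deposited fold enrichment is a ratio of pileup to local background, and the deposited −log10 p and −log10 q are the caller's own. Only the siME2+αKG pileup had been scaled down (by 0.900), and dividing by that factor gave values within 0.0055 of whole numbers. Local background was recovered from pileup and fold.

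Gene models came from GENCODE release 44 on GRCh37, and no peak ran past a chromosome end. Only the autosomes and the sex chromosomes entered. A gene's height is that of the highest summit within 1 kb of any annotated start, and genes that share a summit are each counted. Ratios of at least 1.5-fold were counted. Start-site groups join starts 1000 bp or less apart. Scripts ran in Python 3.11.15 with scipy 1.17.1 and were tested on simulated data. The rule for named genes took the 6 genes, ME2, genes sharing their promoter peak, the 2 nearest genes by height and list members past 1.5-fold; WEE1, PKMYT1, CHEK1, CDKN1A, CDKN1B, CDC6 and E2F1 were named after their values were seen. The genes, lists and tests were chosen with earlier results of these data known.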

Additional observations from a re-analysis of the deposited data

How the results depend on the processing

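No paired analysis was possible because each condition had 1 library, so no replicate could be left out either. Across 7 other settings (scaling, window, peak filter, background), CCNE2 stayed between −0.93 and −0.75 for siME2/siCtrl and between 0.69 and 0.91 for siME2+αKG/siME2, and CDC25A between −0.68 and −0.61 for siME2/siCtrl, all past 1.5-fold. The interval calls of CCNE2 did not hold. That for siME2/siCtrl was lost under each of 3 other scalings (upper bounds 0.01, 0.01 and 0.04), and that for siME2+αKG/siME2 with division by fragment length (lower bound −0.10). At the main starts of CDC25C, a split made after the data had been seen, the siME2/siCtrl interval stayed below 0 under the same 3 scalings (upper bounds −0.16, −0.17 and −0.13). Of 144 values of single genes, 141 stayed inside the counting interval of the reported ratio, and the other 3 were those of CDC25C with the canonical start-site group, a choice added after the data had been seen. That choice moved the median of the 6 genes to −0.42 for siME2/siCtrl. The count of 141 was largely fixed by the settings and says little about robustness. The 3 other scalings shifted all genes alike, and the wider window and the peak filter changed none of these values. For siME2+αKG/siME2, CCNE1 ran from −0.43 to 0.17; with a window of 500 bp its siME2+αKG summit, at −505 bp, was left out. Division by fragment length gave, for all promoters at least 1.5-fold lower and higher, 250 and 272 for siME2/siCtrl, 1126 and 79 for siME2+αKG/siME2, and 812 and 53 for siME2+αKG/siCtrl (526 and 87 without it). Peaks at the genes alone, with no flank, numbered 11 in siME2+αKG, 11 in siME2 and 12 in siCtrl. Over the genes and 5 kb on either side, peaks with at least 13 fragments numbered 15 in siME2+αKG, 13 in siME2 and 19 in siCtrl. Without that filter they numbered 18 in siME2+αKG, 22 in siME2 and 23 in siCtrl. With 13 to 56 fragments, most ratios of single genes have wide counting intervals, and listed peaks near the lowest summits depend on depth.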
